A study of Mus musculus with 8 samples.

Results

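The genes examined here encode apolipoproteins and the machinery that assembles very low density lipoprotein (VLDL) in the liver, namely Apoa1, Apoa2, Apoa4, Apoa5, Apob, Apoc1, Apoc3, Apoe, Apom and Mttp. They were picked by symbol for their role in lipoproteins, and all 10 were found among the 55487 genes of the count tables. Liver RNA of 4 Control mice, numbered 154, 159, 181 and 193, was sequenced beside that of 4 Mc1r LKO mice, numbered 141, 156, 157 and 182. The deposited values were whole numbers of read pairs per gene. The study asked what the loss of the melanocortin 1 receptor from hepatocytes does to lipid metabolism in the liver. Control mice carried Mc1r fl/fl, a floxed Mc1r allele on both chromosomes, and Mc1r LKO mice carried the same alleles together with Alb Cre/+, a Cre recombinase driven by the albumin promoter of hepatocytes. All 8 mice were males that began a cholesterol-rich Western diet at 8 weeks of age and ate it for 12 weeks, so no liver of chow-fed mice enters here. Whole liver was sequenced, so RNA of liver cells other than the targeted hepatocytes was included. The state of the floxed allele in each cell type was not measured here.

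Apolipoproteins are the proteins that give a lipoprotein particle its structure and address. In the hepatocyte, Apob is loaded with triglyceride by the microsomal triglyceride transfer protein while it enters the endoplasmic reticulum, and the particle is then exported as VLDL. Other apolipoproteins join VLDL or HDL in the secretory pathway or in plasma, where they steer hydrolysis of triglyceride by lipoprotein lipase, uptake by receptors and exchange of cholesterol.

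The genes lie on 6 chromosomes of GRCm38, and 6 of the 10 sit in one or the other of 2 clusters. Apoa1 (ENSMUSG00000032083), Apoc3 (ENSMUSG00000032081), Apoa4 (ENSMUSG00000032080) and Apoa5 (ENSMUSG00000032079) share 43.3 kb of chromosome 9 from 46228580 to 46271919, with Apoc3 on the minus strand and the other 3 on the plus strand. Apoe (ENSMUSG00000002985) and Apoc1 (ENSMUSG00000040564) share 9.7 kb of chromosome 7 from 19689481 to 19699188, both on the minus strand. Apob (ENSMUSG00000020609) spans chromosome 12 from 7977648 to 8016835, Mttp (ENSMUSG00000028158) chromosome 3 from 138089854 to 138144968, Apoa2 (ENSMUSG00000005681) chromosome 1 from 171225054 to 171226379, and Apom (ENSMUSG00000024391) chromosome 17 from 35128997 to 35132050. No exonic base of any of the 10 was annotated to another gene of the same strand.

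Promoter windows of RefSeq on GRCm38.p6, from 250 bases before to 50 bases after a gene's start, were held for 8 of the 10 genes (12 windows). Apoc1 and Apoc3 had no entry. The 5 stretches that end before the gene start, or before the RefSeq start where that comes first, are shown 5′ to 3′ on the plus strand, 3 of the cluster on chromosome 9, which holds 4 of the 10 genes, together with those of Apob, the core protein of VLDL, and Apoa2, the most abundant of the 10 messages per length. Capitals mark matches on either strand to 5 short motifs, TGTTTAC and TGTTTGC of the forkhead factors, CAAAGTNCA of the HNF4 type, TTGCNNAA of the C/EBP type, and the TATA box TATAA. In the stretches shown no match overlapped another.
Apoa1, chr9:46228380-46228579: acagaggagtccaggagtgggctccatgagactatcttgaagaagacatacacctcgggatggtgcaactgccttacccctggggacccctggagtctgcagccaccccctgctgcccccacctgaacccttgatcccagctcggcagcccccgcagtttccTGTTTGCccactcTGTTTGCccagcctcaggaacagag
Apoa4, chr9:46240594-46240695: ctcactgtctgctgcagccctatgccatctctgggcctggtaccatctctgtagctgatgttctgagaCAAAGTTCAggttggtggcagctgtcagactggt
Apoa5, chr9:46268358-46268607: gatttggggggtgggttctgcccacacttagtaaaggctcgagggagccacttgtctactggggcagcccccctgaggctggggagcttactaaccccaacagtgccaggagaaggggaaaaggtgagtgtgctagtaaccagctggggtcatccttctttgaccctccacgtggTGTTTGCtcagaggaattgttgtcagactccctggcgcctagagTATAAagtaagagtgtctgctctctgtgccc
Apoa2, chr1:171224804-171225053: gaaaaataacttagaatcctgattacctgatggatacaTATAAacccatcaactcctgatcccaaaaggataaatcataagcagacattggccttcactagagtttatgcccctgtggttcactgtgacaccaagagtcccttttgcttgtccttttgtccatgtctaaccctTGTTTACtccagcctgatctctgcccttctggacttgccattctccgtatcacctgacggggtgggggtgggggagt
Apob, chr12:7977427-7977647: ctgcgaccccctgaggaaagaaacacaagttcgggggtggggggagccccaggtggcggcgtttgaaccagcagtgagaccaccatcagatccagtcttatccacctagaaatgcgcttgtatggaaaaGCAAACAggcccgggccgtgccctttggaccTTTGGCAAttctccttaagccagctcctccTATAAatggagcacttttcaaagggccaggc

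Apoa1 held TGTTTGC at 2 places, with first bases 38 and 25 bases from the 3′ end of the stretch, and Apoa5 and Apob each held it once. Over the whole windows TGTTTGC was found for 3 of the 8 genes (Apoa1, Apoa5 and Apob) and in 5.07% of 32851 promoter windows of the same length. TGTTTAC was found for Apoa2 and Apoe and in 3.65% of windows. CAAAGTNCA was found for Apoa4 alone of the 8 genes and in 1.41% of windows. The TATA letters were found for Apoa2, Apoa5, Apob and Apoe and in 24.9% of windows, with the first base 31 bases from the 3′ end in both Apoa5 and Apob but 212 bases from it in Apoa2. TTGCNNAA was found for Apoa2 and Apob and in 10.8% of windows. Each match describes letters in a window only.

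The depth was 10773151 to 23161380 read pairs on genes in a Control mouse and 14196138 to 24763375 in an Mc1r LKO mouse. Mc1r had 0 counts in all 8 livers, and the limit such a count sets, 3 counts, equals 0.121 to 0.278 CPM, a unit in which counts are divided by library size (counting error only). The genotype of a library could therefore not be checked against its target. Mc1r LKO mouse 182 stood apart on the first principal component of all genes (37.6% of the variance) and Control mouse 159 on the second (16.9%), and values without them are given beside the results they moved most. The summed level of 10 hepatocyte markers was 70198 to 84425 CPM in Control and 74130 to 90815 CPM in Mc1r LKO livers. Apoa1, Apoa4, Apob and Mttp are also made by the intestine, and of 10 small intestine markers 5 (Alpi, Lct, Sis, Cdx1 and Cdx2) were at 0 in every liver, the 10 summing to 203 to 230 CPM in Control and 186 to 233 CPM in Mc1r LKO livers. Fabp2 alone made up 181 to 231 CPM of that sum, and the other 9 markers together 1.08 to 4.79 CPM. Apoe is made by macrophages too, and 9 Kupffer cell and macrophage markers, none at 0 in all livers, summed to 306 to 769 CPM in Control and 201 to 478 CPM in Mc1r LKO livers. In whole liver, fewer cells of a type and less RNA per cell cannot be told apart.

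The 10 genes together took a large and steady part of the liver message. Their share of all counted read pairs was 6.34%, 6.92%, 6.10% and 7.05% in Control mice 154, 159, 181 and 193 and 7.27%, 6.85%, 6.53% and 6.54% in Mc1r LKO mice 141, 156, 157 and 182. The shares were 6.60% ± 0.456 (SD, n = 4) in Control and 6.80% ± 0.346 (SD, n = 4) in Mc1r LKO mice, and the groups overlapped. Per length, on the scale of TPM (counts divided by exonic length and scaled to a common total), the 10 genes held between 11.1% and 12.8% of the liver's total in a mouse.

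Levels of the 10 genes, compared as TPM because read counts grow with length, spanned from 159 to 41837 as means over the 8 mice. Apoa2, a protein of HDL, was second of all genes at 40394 ± 2459 TPM (SD, n = 4) in Control and 43280 ± 2835 TPM in Mc1r LKO mice. Apoe, the ligand that remnant particles present to hepatocyte receptors, ranked next at 34360 ± 2666 and 34669 ± 3204 TPM. Apoa1, the main protein of HDL, had 16125 ± 2826 and 16646 ± 1171 TPM. Apoc1, a small protein of VLDL and HDL that hinders uptake by receptors, had 11798 ± 1688 and 12436 ± 1661 TPM. Apoa4, made by intestine and, in mice, by liver, had 8657 ± 2519 and 7403 ± 2438 TPM. Apoc3, which restrains lipoprotein lipase and remnant uptake, had 3888 ± 268 and 4317 ± 247 TPM. Apoa5, which favours lipoprotein lipase, had 1125 ± 207 and 1240 ± 217 TPM. Apob, of which a VLDL particle carries a single copy, had 918 ± 152 and 791 ± 92.5 TPM. Apom, the carrier of sphingosine 1-phosphate on HDL, had 151 ± 20.2 and 172 ± 30.7 TPM, and Mttp had 167 ± 30.5 and 151 ± 6.58 TPM.

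The ranges over the 8 mice of neighbours in this order were apart at 3 places only, between Apoe and Apoa1, between Apoc3 and Apoa5, and between Apob and Apom. The other neighbouring genes overlapped, so that Apom and Mttp, for example, did not differ in level beyond their spread. These ranges pool the mice and do not compare one gene with another within a liver. Apoa1 was above Apoc1 in every liver, as in mouse 181 (13753 and 12404 TPM), though their ranges overlapped. Apob was number 8 of the 10 per length but number 5 by counts, since its exons sum to 13934 bases against 537 for Apoa2.

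**Figure D1:**
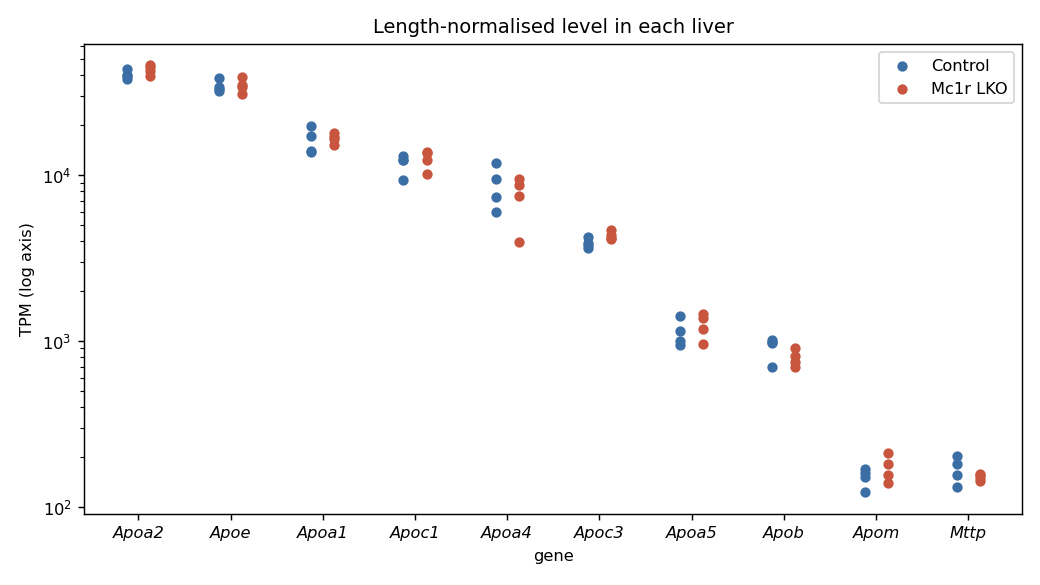
Level per length of the 10 genes in each liver, in TPM on a log axis, in order of their mean. Each point is 1 mouse, blue for Control and red for Mc1r LKO, and the colours lie at like heights for every gene while the genes span from 122 TPM (the lowest Apom value) to 45868 TPM (the highest Apoa2 value).

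Between the genotypes, 0 of the 10 genes passed an adjusted p-value under 0.05, against 0.0% of the 13400 genes tested (quasi-likelihood test of edgeR, Benjamini-Hochberg adjustment). Adjusted p-values of the 10 genes were between 0.740 and 0.963, and the smallest over all genes was 0.118. At an unadjusted p-value under 0.05, 1 of the 10 passed (Apoc3), against 6.72% (901) of all genes tested, a share near that background. With the further limit of 0.25 on the absolute log2 fold change, which the study's methods also name, 0 of the 10 passed, against 5.31% (711) of all genes. The values of the 2 genotypes failed to overlap in 0 of the 10 genes, against 4.16% (558) of all genes. Another tool gave the same count at the adjusted p-value, DESeq2 calling 0 of the 10 and 17 genes in all.

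The log2 fold change of Mc1r LKO over Control was above 0 for 7 of the 10 genes (Apoa1, Apoa2, Apoa5, Apoc1, Apoc3, Apoe and Apom), against 47.9% of all genes tested, and below 0 for Apoa4, Apob and Mttp. That background share differed by gene length, as given below. The median log2 fold change was 0.15 over the 10 genes and -0.011 over all genes, and the median of its size was 0.15 and 0.13. Standard errors were 0.104 to 0.248, and every 95% interval of the 10 lay between -0.69 and 0.63. A doubling or halving (1 on the log2 scale) thus lay outside the interval of each gene, and smaller differences up to the bounds given for each gene were not excluded.

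**Figure D2:**
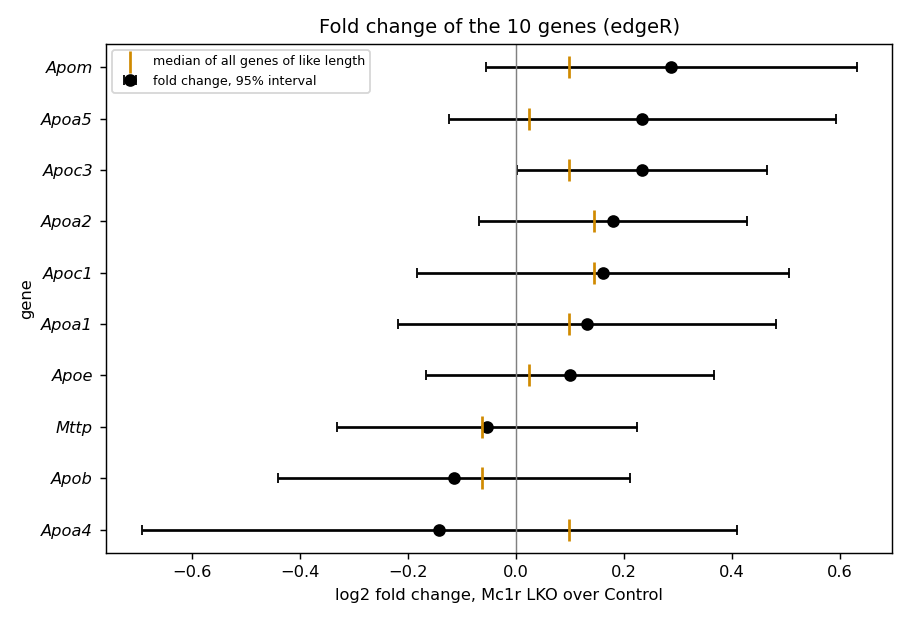
Log2 fold change of each gene in Mc1r LKO over Control livers with its 95% interval from edgeR (points and bars), in order of size, beside the median of all tested genes in the same class of exonic length (orange ticks). All intervals but that of Apoc3 cross 0, and Apoa2, Apoc1, Apoa1 and Mttp lie within 0.035 of the tick.

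Apob and Mttp, the core protein of VLDL and the transfer protein that lipidates it, were lower in Mc1r LKO livers on average, by less than the spread between mice. Apob was 5311, 4163, 5721 and 5464 CPM in Control mice 154, 159, 181 and 193, and 4307, 4092, 4813 and 5876 CPM in Mc1r LKO mice 141, 156, 157 and 182 (CPM with TMM-normalized library sizes). Mc1r LKO mice 141, 156 and 157 were below the Control mean, and mouse 182 was above all Control mice. The Apob means were 5165 ± 689 and 4772 ± 796 CPM (SD, n = 4), a log2 fold change of -0.11 ± 0.147 (SE; 95% interval -0.44 to 0.21; unadjusted p = 0.455, adjusted p = 0.920, edgeR's quasi-likelihood test). It was -0.23 without mouse 182, -0.20 without mouse 159 and -0.045 without mouse 156, and the other fits with 1 mouse left out lay between. Mttp was 488, 352, 469 and 372 CPM in the same Control mice and 370, 389, 418 and 445 CPM in the Mc1r LKO mice. All Mttp values of Mc1r LKO mice lay inside the Control range. The log2 fold change of Mttp was -0.053 ± 0.125 (SE; 95% interval -0.33 to 0.22; unadjusted p = 0.680, adjusted p = 0.963), and it changed sign without Control mouse 154 (0.031) or 181 (0.0052).

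Apoe and Apoc1, neighbours on chromosome 7 and proteins of VLDL remnants, overlapped between the genotypes. Apoe was 26902, 31344, 29515 and 31442 CPM in Control mice and 34488, 31304, 28271 and 33681 CPM in Mc1r LKO mice. Mc1r LKO mice 141 and 182 lay above all Control mice, and mouse 157 was second lowest of the 8. The log2 fold change of Apoe was 0.10 ± 0.120 (SE; 95% interval -0.17 to 0.37; unadjusted p = 0.424, adjusted p = 0.915). It was 0.059 without mouse 154, 0.068 without mouse 141 and 0.16 without mouse 157. Apoc1 was 2706, 3973, 3855 and 3753 CPM in Control mice and 4275, 3844, 3220 and 4642 CPM in Mc1r LKO mice. Mice 141 and 182 were again above every Control mouse, and Control mouse 154 was the lowest of the 8, as it was for Apoe. The log2 fold change of Apoc1 was 0.16 ± 0.155 (SE; 95% interval -0.18 to 0.51; unadjusted p = 0.321, adjusted p = 0.897). It was 0.055 without mouse 154, 0.086 without mouse 182 and 0.26 without mouse 157.

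The messages of Apoa1 and Apoa2, which encode proteins of HDL, were higher in Mc1r LKO livers on average, with overlap in each. Apoa1 was 6719, 10494, 7101 and 8163 CPM in Control mice and 7814, 8753, 8696 and 10313 CPM in Mc1r LKO mice. Control mouse 159 was the highest of all 8, and 3 of 4 Mc1r LKO mice were above the Control mean. The log2 fold change of Apoa1 was 0.13 ± 0.158 (SE; 95% interval -0.22 to 0.48; unadjusted p = 0.423, adjusted p = 0.915) and ranged from 0.057 to 0.29 when 1 mouse was left out, the highest without mouse 159. Apoa2 was 8352, 10179, 8926 and 7866 CPM in Control mice and 10076, 10346, 9754 and 9834 CPM in Mc1r LKO mice. All 4 Mc1r LKO mice lay above 3 of the Control mice and the Control mean, and mouse 159 reached among them. Apoa2 differed by 0.18 ± 0.111 on the log2 scale (SE; 95% interval -0.068 to 0.43; unadjusted p = 0.137, adjusted p = 0.831). Without mouse 159 the log2 fold change of Apoa2 was 0.26 (unadjusted p = 0.0340, adjusted p = 0.690, edgeR's quasi-likelihood test). Its groups then did not overlap, which held for 8.53% of all genes without that mouse.

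Apom was the least counted of the 10, with 574 to 1936 read pairs per mouse. It was 66.5, 53.4, 68.0 and 59.2 CPM in Control mice and 59.0, 66.1, 78.2 and 98.4 CPM in Mc1r LKO mice. Mouse 182 stood highest, with mouse 157 next, and mice 141 and 156 lay inside the Control range. The fold change of Apom was the largest of the 10 in this fit, 1.22-fold or 0.29 ± 0.154 on the log2 scale (SE; 95% interval -0.055 to 0.63; unadjusted p = 0.0906, adjusted p = 0.784). Without mouse 182 it was 0.14, the lowest value with 1 mouse left out.

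Among the genes that act on triglyceride hydrolysis, Apoc3 gave the smallest unadjusted p-value of the 10. Apoc3 was 1548, 1861, 1534 and 1470 CPM in Control mice and 1828, 1983, 1770 and 1964 CPM in Mc1r LKO mice. All 4 Mc1r LKO mice were above the Control mean and above 3 of the 4 Control mice, and mouse 159 lay among them, so the groups overlapped. The means were 1604 ± 175 and 1886 ± 104 CPM (SD, n = 4), 1.18-fold or 0.23 ± 0.104 on the log2 scale (SE; 95% interval 0.0028 to 0.47; unadjusted p = 0.0478, adjusted p = 0.740, edgeR's quasi-likelihood test). The unadjusted p-value was 0.00822 to 0.111 over the fits that left out 1 mouse, and of these 8 fits it passed 0.05 in those without mouse 159 or 157. With all 8 mice it missed 0.05 with library size alone (0.0777), edgeR's likelihood ratio test (0.0824), the filter of at least 1 count (0.0607) and the robust fit (0.0512), and passed under the other 5 alternatives.

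Apoa5 overlapped between the genotypes. It was 933, 1089, 1204 and 1367 CPM in Control mice and 1517, 1254, 1034 and 1600 CPM in Mc1r LKO mice. Mice 141 and 182 were above every Control mouse, and mouse 157 was second lowest of the 8. Apoa5 differed by 0.23 ± 0.161 on the log2 scale (SE; 95% interval -0.12 to 0.59; unadjusted p = 0.175, adjusted p = 0.843). With 1 mouse left out it was 0.15 (without 182 or 154) to 0.35 (without 157). The size of the Apoc3 and Apoa5 fold changes was alike, and the wider spread between mice of Apoa5 (within-group SD of 0.261 on the log2 scale, against 0.121 for Apoc3) went with a wider interval.

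Apoa4 varied the most of the 10 between mice of one genotype. It was 8334, 5760, 4565 and 6633 CPM in Control mice and 6573, 5734, 7314 and 3311 CPM in Mc1r LKO mice. The highest value (mouse 154) was 2.52 times the lowest (mouse 182), and 3 of 4 Mc1r LKO mice lay inside the Control range. The fold change of Apoa4 was -0.14 ± 0.248 on the log2 scale (SE; 95% interval -0.69 to 0.41; unadjusted p = 0.581, adjusted p = 0.940). Without mouse 182 it was 0.055 and without mouse 154 it was 0.025, so its sign rested on single mice. Its within-group SD of 0.442 on the log2 scale was larger than that of 77.6% of the genes tested, whereas Apoa2 (0.116), Apoe (0.118) and Apoc3 (0.121) were steadier, with at most 14.4% of genes below any of them.

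**Figure D3:**
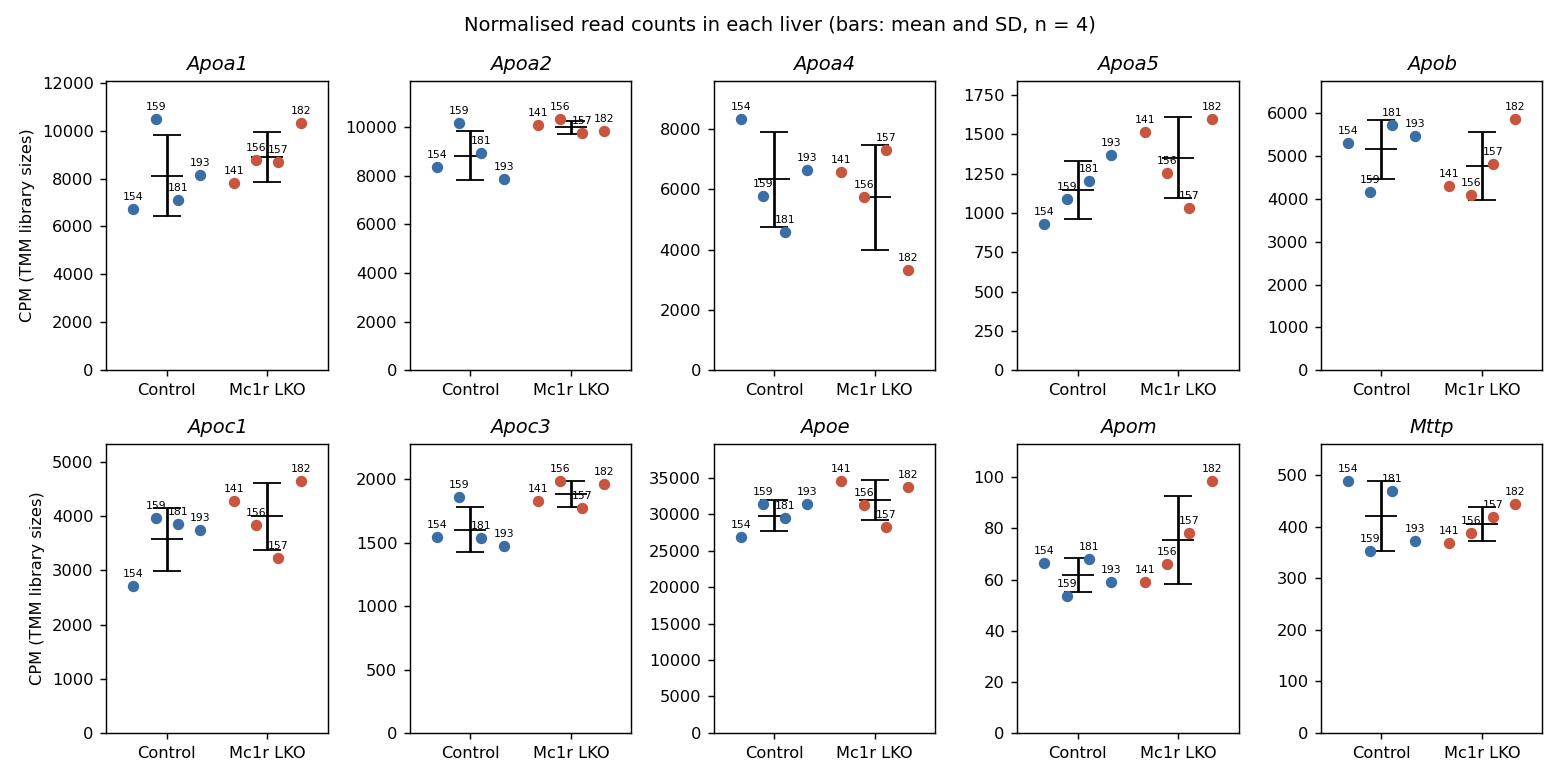
Normalised read count (CPM with TMM library sizes, linear axes from 0) of each gene in each liver, with mouse numbers. Bars give the mean and SD of 4 mice. The genotypes overlap in all 10 panels, and Apoa4 of mouse 182 (3311 CPM) is the lowest value of its panel.

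A few mice recurred at the extremes of several genes. Mc1r LKO mouse 182 was the highest of the 8 for Apoa5, Apob, Apoc1 and Apom and the lowest for Apoa4. Control mouse 154 was the highest for Apoa4 and Mttp and the lowest for Apoa1, Apoa5, Apoc1 and Apoe. Control mouse 159 was the highest for Apoa1 and the lowest for Apom and Mttp.

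The 8 pairs of genes that are neighbours in a cluster or act in one step were compared across the 8 mice, with exact permutation tests adjusted over the 8 pairs. Apoe and Apoc1 varied together, with Pearson's r = 0.93 (p = 0.00117, adjusted p = 0.00933, two-sided exact permutation test) and Spearman's rho = 0.81 (p = 0.0218, adjusted p = 0.174). On deviations from the genotype means r was 0.92 (adjusted p = 0.0510, permutation). Those deviations were shuffled over all 8 mice and not within genotype, so that p-value is not exact. With the 2 mice farthest from the median of Apoe (154 and 157) left out, r was 0.78 (p = 0.0903, exact permutation). With counts scaled by library size alone it was 0.81 (adjusted p = 0.0893, exact permutation), so the direction was the same and the call was not. Apoa1 with Apoc3 (r = 0.72, rho = 0.69) and Apob with Mttp (r = 0.70, rho = 0.60) were positive and not past the threshold (each adjusted p = 0.173 for r, exact permutation, and 0.265 for rho). Apoa4 ran against its neighbours, with r = -0.63 against Apoa5 (adjusted p = 0.178, exact permutation), -0.50 against Apoa1 and -0.40 against Apoc3 (adjusted p = 0.331 and 0.423), and the first became 0.043 without mice 154 and 182. The sign of r thus differed among pairs of the cluster on chromosome 9, and no test compared one r with another.

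All 45 pairs of the 10 genes were then compared, a step added after the data were seen. Pearson's r passed for 4 pairs after adjustment over the 45 (each adjusted p = 0.0318, exact permutation), and Spearman's rho for 0. How often pairs of other liver genes pass was not computed, so this count has no background and shows nothing particular to the 10 genes. Apoe and Apoc1 were 1 of these pairs. Apoa5, on another chromosome, was close to both, with r = 0.91 and rho = 0.90 against Apoe (unadjusted p = 0.00223 and 0.00456, exact permutation; adjusted p for rho 0.103) and r = 0.88 and rho = 0.76 against Apoc1 (unadjusted p = 0.00283 and 0.0368; adjusted p for rho 0.276). Without mice 154 and 182 r was 0.83 against Apoe and 0.70 against Apoc1. The fourth pair was Apoa2 and Apoc3, for which no pooled r is given because the mice formed 2 clumps, Control mice 154, 181 and 193 low in both genes and the other 5 mice high in both. All values of a mouse share its library and scaling factor.

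**Figure D4:**
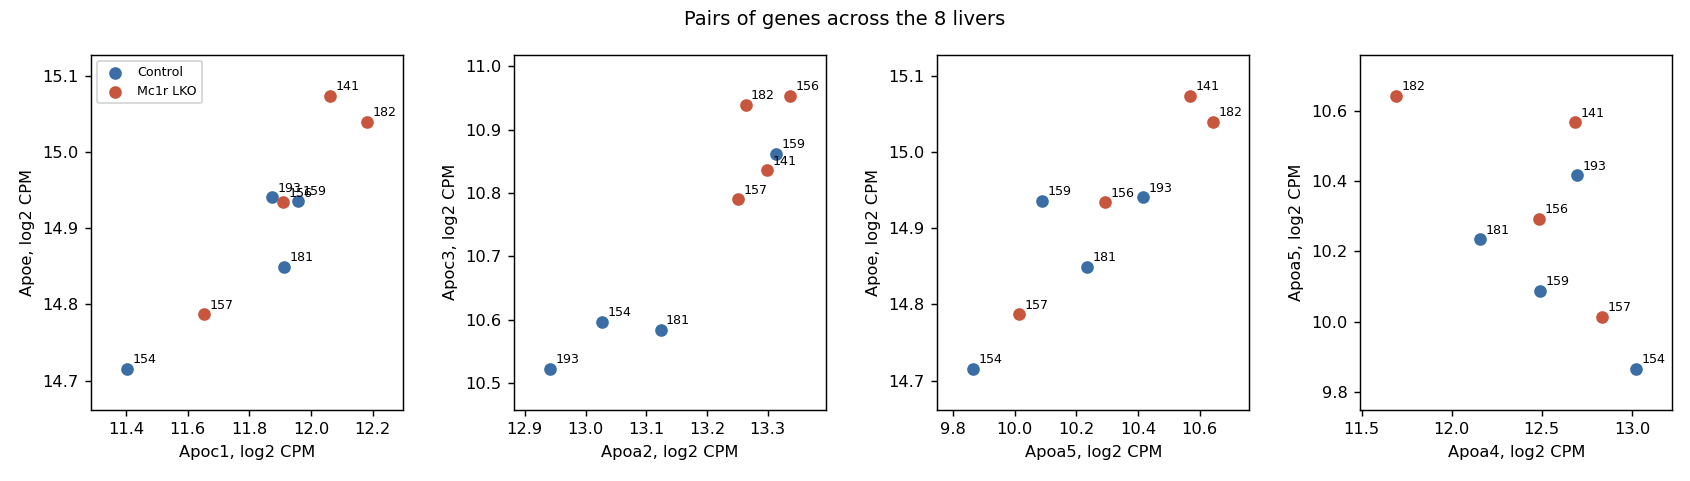
Log2 CPM of 4 pairs of genes in the 8 livers (blue Control, red Mc1r LKO, mouse numbers beside points). Apoe rises with Apoc1 and Apoa5 from mouse 154 to mice 141 and 182, Apoa2 and Apoc3 fall into 2 clumps, and the opposite slope of Apoa5 against Apoa4 rests on mice 154 and 182.

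Gene length moved with the comparison of genotypes. Over all genes tested the median log2 fold change was 0.15 for 592 genes with under 1000 exonic bases, 0.10 for 1000 to 2000, 0.025 for 2000 to 4000, -0.027 for 4000 to 6000 and -0.063 for 4067 genes of 6000 or more. The share of genes above 0 was 65.2%, 66.0%, 56.2%, 43.2% and 33.6% in these classes, in the same order. Apoa2 and Apoc1 fell in the first class, Apoa1, Apoa4, Apoc3 and Apom in the next, Apoe and Apoa5 in the third, and Apob and Mttp in the last. Against the median of its class, a comparison added after the data were seen, the log2 fold change was 0.19 for Apom, 0.21 for Apoa5, 0.13 for Apoc3, 0.075 for Apoe, 0.035 for Apoa2, 0.032 for Apoa1, 0.017 for Apoc1, 0.010 for Mttp, -0.051 for Apob and -0.24 for Apoa4. Per mouse, the median deviation of genes under 2000 bases minus that of genes of 6000 or more was -0.12, 0.093, -0.18 and -0.094 on the log2 scale in Control mice 154, 159, 181 and 193 and 0.12, 0.15, 0.089 and 0.00031 in Mc1r LKO mice 141, 156, 157 and 182. Control mouse 159, which lay among the Mc1r LKO mice for Apoa2 and Apoc3, lay among them here too. The part of length in these fold changes was not tested.

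The wider pathway was read from 9 lists chosen by function, of which 0 genes passed at the adjusted p-value. A list gene is called past the threshold here where its unadjusted p-value was under 0.05 and its log2 fold change 0.25 or more in size, which held for 5.31% of all genes. In the fits with 1 mouse left out it held for between 4.45% (without mouse 141) and 6.81% (without mouse 182) of all genes. Calls of list genes in those fits stand against these shares. Of 14 other apolipoproteins tested, 7 had a value above and 7 below 0, with a median log2 fold change of -0.0039, and 1 passed, Apoc4, a gene of the Apoe and Apoc1 cluster. Without mouse 159, 12 of the 14 lay above 0 (median 0.14), and without mouse 182, 3 did (median -0.11), a comparison added for all lists after the data were seen. Apoc4 was 591, 744, 623 and 604 CPM in Control mice and 841, 809, 716 and 756 CPM in Mc1r LKO mice, 0.29 ± 0.104 on the log2 scale (SE; unadjusted p = 0.0203, adjusted p = 0.734, edgeR's quasi-likelihood test). Mouse 159 lay inside the range of the Mc1r LKO mice, and the call was lost without mouse 154, 141 or 156. Apool, a mitochondrial protein, was next in that list, at 25.6 ± 1.20 and 29.3 ± 3.61 CPM.

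Of 15 genes that load lipid in the endoplasmic reticulum, 10 had a value above 0 and 0 passed (median 0.070). Without mouse 182, 8 lay above 0 (median 0.0057) and Tm6sf2 passed. Pla2g12b, which helps concentrate Apob and Mttp at the membrane, was 46.5, 45.3, 47.2 and 46.0 CPM in Control mice and 50.2, 50.8, 51.8 and 62.0 CPM in Mc1r LKO mice, with no overlap, and its log2 fold change of 0.22 ± 0.088 missed the limit on size (unadjusted p = 0.0344). Tm6sf2, needed for full lipidation of VLDL, was 32.9, 26.3, 24.9 and 16.7 CPM in Control mice and 33.7, 37.3, 29.9 and 31.2 CPM in Mc1r LKO mice (0.39 on the log2 scale, unadjusted p = 0.0504). Of 21 genes of export to the Golgi, 10 lay above 0, 11 below and 0 passed (median -0.0033), with Mcfd2 (0.14) and Sec24b (-0.14) having the smallest p-values.

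Of 5 genes listed for Apob mRNA editing, the enzyme and RNA-binding proteins linked to it, 2 passed and both were lower. Rbm47, an RNA-binding cofactor of the editing enzyme, was 61.9, 67.3, 74.1 and 62.2 CPM in Control mice and 49.4, 59.0, 53.4 and 55.9 CPM in Mc1r LKO mice. The groups did not overlap, and Rbm47 fell by 0.29 on the log2 scale (SE 0.092; unadjusted p = 0.0111, adjusted p = 0.734). Apobec1, the editing enzyme, was 21.0, 32.0, 20.4 and 22.9 CPM in Control mice and 16.3, 21.6, 18.6 and 18.7 CPM in Mc1r LKO mice. Its groups overlapped, with mouse 159 the highest, and its log2 fold change was -0.35 ± 0.153 (unadjusted p = 0.0440, adjusted p = 0.735) and -0.18 with mouse 159 left out. The median of the 5 was -0.17, over a list not divided by whether a gene aids or hinders editing. Between 0 and 2 of the 5 passed when 1 mouse was left out, 0 without mouse 141 and 1 without mouse 159, 181, 193, 157 or 182. Editing of the Apob message itself was not analysed here.

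Of 30 regulators of apolipoprotein genes, 17 lay above 0 and 13 below, with a median of 0.012, and 3 passed, all higher and with no overlap between the genotypes. Without mouse 182, 11 of the 30 lay above 0 (median -0.039) and 2 more genes passed, Mlxipl and Nr3c1, both lower and both named after their values were seen. Neither passed with all mice or in any other fit with 1 mouse left out. Mlxipl encodes ChREBP, whose message the paper reported as higher in Mc1r LKO livers, by qPCR of its larger set of mice. Foxa1 passed as lower without mouse 154 and Ppara as lower without mouse 159. Nr0b2 passed as higher without mouse 181 and Foxo3 as higher without mouse 157. These genes too were named after their values were seen. Foxo1, a forkhead factor that insulin holds out of the nucleus, was 37.1, 30.6, 34.3 and 31.1 CPM in Control mice and 41.4, 42.8, 41.6 and 56.3 CPM in Mc1r LKO mice (log2 fold change 0.45 ± 0.120, unadjusted p = 0.00350, adjusted p = 0.734). Foxa3, a forkhead factor of hepatocytes, was 23.2, 26.3, 28.3 and 26.8 CPM and 37.1, 32.0, 32.1 and 85.5 CPM (0.84 ± 0.294, unadjusted p = 0.0172). Mouse 182 was far above the others for Foxa3, and without it the log2 fold change was 0.37. Cebpb was 94.9, 93.0, 99.3 and 52.4 CPM in Control mice and 107, 169, 101 and 142 CPM in Mc1r LKO mice (0.61 ± 0.221, unadjusted p = 0.0189). Cebpb lost the call without mouse 156. Foxo1 and Foxa3 passed in each of the 8 fits with 1 mouse left out. The forkhead letters in the stretches shown above do not tie these factors to any value here.

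Of 7 genes that govern hydrolysis of triglyceride in plasma, 5 lay above 0 and 1 passed, Angptl4, an inhibitor of lipoprotein lipase (median 0.21, and 0.10 without mouse 182). Angptl4 was 126, 94.8, 88.8 and 129 CPM in Control mice and 170, 172, 184 and 173 CPM in Mc1r LKO mice. The groups did not overlap, and the log2 fold change was 0.67 ± 0.129 (unadjusted p = 3.65e-04, adjusted p = 0.734, edgeR's quasi-likelihood test). It passed in each of the 8 fits with 1 mouse left out. Of 14 genes of lipoprotein clearance, 6 lay above 0, 8 below and 0 passed (median -0.12), with Lsr at 0.21 and Lrp1 at -0.25. Without mouse 182 the clearance median was 0.0019 and Lrp1 passed as lower, and without mouse 154 it was -0.0044 and Lsr passed as higher. Of 11 genes of HDL formation 6 lay above 0 and 0 passed (median 0.046), with Bmp1 at 0.16 and Pcolce2 at -0.34. Without mouse 182, 3 of the 11 lay above 0 (median -0.067), Lipg passed as higher and Abca1 as lower.

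The 17 other abundant plasma proteins of hepatocytes gave a yardstick for the 10 genes. Of these 17 genes, 16 lay above 0 and 0 passed, with a median log2 fold change of 0.12 against 0.15 for the apolipoproteins and Mttp. Serpinc1 (antithrombin) was 1763 ± 114 and 2008 ± 116 CPM, and Ahsg (fetuin A) 3571 ± 386 and 4579 ± 1701 CPM. Without mouse 182, 9 of the 17 lay above 0 and the median was 0.0041. In that fit the 10 genes ran from -0.23 (Apob) to 0.22 (Apoc3), with Apoe (0.078) and Apoc1 (0.086) in the middle of the order. Leaving out mouse 159 put 17 of the 17 above 0, with a median of 0.21. Ttr passed as higher in that fit and was named after its values were seen. No test compared the 2 sets of genes.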

How the data were processed

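Paired reads of a stranded mRNA library were, per the labels and methods, trimmed with Trim Galore 0.6.6, aligned with STAR 2.7.6a and counted per gene with featureCounts (Subread 2.0.1). The deposited values were counts of read pairs per gene, without normalization, and per the file headers they were counted by strand on an Ensembl annotation of GRCm38. Groups came from the sample titles. Genes were kept by filterByExpr (minimum count 10, minimum total count 15), scaled by TMM and tested in R 4.3.3 with the glmQLFTest function of edgeR 4.0.16, and p-values were adjusted after Benjamini and Hochberg over the 13400 genes kept. Log2 CPM had a prior count of 2, and TPM used the exonic lengths in the tables. Totals of 10773151 to 24763375 read pairs and 4 mice per group set the precision. On simulated counts the test called 78 of 95 genes changed 2-fold. The simulation gave every gene the same spread between mice and held no outlying mouse, unlike these data, so that share does not carry over to them. No pair of mice of one genotype agreed within sampling noise. Alternatives were other tests (DESeq2 1.42.0, limma-voom 3.58.1, edgeR's likelihood ratio and robust fits), scalings and filters, and leaving out each mouse. No batch is named. The 10 genes, the lists and the alternatives were chosen with earlier results of these data known, and steps said to be added were chosen after these values were seen. Named genes were the 10, Mc1r, and of each list the 2 genes with the smallest p-value and any that passed the unadjusted threshold. Of these, 1 gene is not reported here. Promoter windows came from RefSeq.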

Additional observations from a re-analysis of the deposited data

How the results depend on the processing

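Under none of the 17 alternatives did any of the 10 genes pass after adjustment. Of all genes 17 passed with DESeq2, 8 with edgeR's likelihood ratio test and 1 with the filter of at least 1 count in any mouse, which tested more genes and gave 1140 genes in place of 711 at the unadjusted threshold. With 1 mouse left out, 0 to 2 of the 10 passed the unadjusted threshold with its limit on size, Apoa2 and Apoc3 without mouse 159, Apoa5 and Apoc3 without mouse 157 and Apom without mouse 141, against 5.65%, 5.44% and 4.45% of all genes in those fits. Groups did not overlap for 0 to 2 of the 10 (Apoa2 and Apoc3 without mouse 159, against 8.53% of all genes). Signs turned for 2 of the 10 with 1 mouse left out, Apoa4 (-0.27 to 0.055) and Mttp (-0.12 to 0.031), and Mttp was 0.010 relative to the median of its length class. Of the correlations, Apoa1 with Apoa5 was -0.018 to 0.59 with 1 mouse left out (the lowest without mouse 154), Apoc3 with Apoa5 was -0.018 on deviations from the genotype means, and Apoa4 with Apoa5 was 0.043 without its 2 farthest mice. The cause was not tested for these changes. With CPM in place of TPM, 9 of the 10 genes changed rank. No paired analysis was made, because the replicate numbers are those of single mice and the sample titles pair none of them across genotypes. Whether any of the mice shared a litter or a cage was not known here. With 4 mice per group, the spread between mice and not the depth limits the fold changes: the 10 genes had at least 574 read pairs in every mouse.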
